A study of Homo sapiens with 4 samples.

Results

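The genes described here encode the subunits and assembly factors of the mitochondrial respiratory chain and ATP synthase, complexes I to V. They were taken by symbol, as every gene with a probe set assigned to a single symbol that starts with NDUF, UQCR, ATP5, or COX and a digit, plus SDHA, SDHB, SDHC, SDHD, CYC1, LYRM7, BCS1L, TTC19, SURF1, SCO1 and SCO2. This gave 110 of the 19775 genes on the array, of which 101 had a mean signal of at least 15.3, the median over all probe sets, and were kept. Of these, 97 were at or above 110.3, the 75th percentile, and are called bright. The 110 genes comprised 76 nuclear-encoded subunits, 24 assembly factors, 3 mitochondrially encoded subunits, 1 inhibitor of ATP synthase, and 6 noncoding RNAs or pseudogenes whose symbols match the rule (ATP5MC2P1, COX6A1P1, COX10-DT, NDUFB2-AS1, NDUFV1-DT and NDUFV2-AS1). The 9 genes below 15.3 were COX17, COX6A2, COX6B2, COX7A1, COX8C, ATP5MF, COX6A1P1, NDUFB2-AS1 and NDUFV2-AS1, and are described no further. SDHB, UQCRFS1 and NDUFA4 were among 11 genes of these complexes with no single-symbol probe set and were not analysed here.

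Complex I, NADH:ubiquinone oxidoreductase, and complex II, succinate dehydrogenase, pass electrons to ubiquinone. Complex III, the cytochrome bc1 complex, hands them to cytochrome c, and complex IV, cytochrome c oxidase, to oxygen, while complex V, ATP synthase, uses the proton gradient to make ATP. Most subunits are encoded in the nucleus, a core set is encoded in mitochondrial DNA, and assembly factors insert cofactors and join the parts without remaining in the finished enzyme.

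All 4 groups are SK-BR-3 cells, a widely used HER2-amplified human line from breast cancer whose p53 carries a missense mutation. The groups were cells with p53 shRNA and Pontin siRNA, cells with Pontin siRNA and the control shRNA vector, cells with p53 shRNA alone, and cells with control shRNA alone, the last also described as an empty vector. Cells were grown in DMEM with serum, selected with puromycin after shRNA transfection, and harvested 24 h after siRNA transfection, and 200 ng of RNA was used per array. The titles of the arms without Pontin siRNA read sicon, which is not spelled out, and each group is a single array of transfected cells with no replicate, so the differences below are sizes in matched pairs, with no spread within a group beside them. RUVBL1 encodes Pontin, a hexamer-forming AAA+ ATPase that works with its partner Reptin, encoded by RUVBL2, in chromatin remodellers and in co-chaperone complexes.

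Each knockdown was read in 2 pairs that share no array. For Pontin siRNA, the first pair set Pontin siRNA over control shRNA, and the second set both knockdowns over p53 shRNA alone. For p53 shRNA, the first pair set p53 shRNA over control shRNA, and the second set both knockdowns over Pontin siRNA alone. Ratios are given as log2 in that order. A call required a difference of 1.5-fold or more in each pair, in one direction. A looser limit of 0.32 in log2 was also used.

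The array with both knockdowns stood somewhat apart: its median signal over all probe sets was 19.6, against 15.9 to 16.5 on the other 3 arrays, and its 18 hybridisation control probe sets were 1.42 times those of the control array. RUVBL1 had a signal of 127.4 with Pontin siRNA against 477.7 with control shRNA, and 65.8 with both knockdowns against 398.2 with p53 shRNA. RUVBL2 had 2770.6 with Pontin siRNA against 2428.2 with control shRNA, and 2723.3 with both knockdowns against 2574.7 with p53 shRNA. Of 8 markers of a HER2-amplified luminal line, 7 were above 15.3 on every array, among them ERBB2 at 4823.2 to 5581.0, and CDH1 was at 1.8 to 13.0. Of 3 immune markers measured, 0 or 1 passed 15.3 on an array, and their summed signal was 11.3 to 32.9 on all arrays. Markers of other cell types were also few: 0 to 2 of 2 basal, 1 to 3 of 5 mesenchymal and 1 of 2 endothelial markers passed, with summed signals of 12 to 43.9, 191.8 to 221.3 and 30.4 to 45.7. Their part in the results was not tested. In bulk RNA such as this, fewer cells carrying a transcript and less of it per cell cannot be told apart.

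With Pontin siRNA, LYRM7, an assembly factor gene of complex III, stood lower than any other respiratory chain gene kept, in both pairs, while most subunit genes had ratios close to 0. The genes called lower were LYRM7 and COX4I2, 2 of 101, where 1.24% of all genes kept were called lower. The gene called higher was the pseudogene ATP5MC2P1, 1 of 101 against 1.16% of all genes kept. These shares are near the background, so the counts set the respiratory chain genes as a group apart in neither direction. Among the 97 bright genes, 0 were called higher, against 0.181% of all bright genes, and LYRM7 was the 1 called lower, against 1.1%. In the first pair alone, without the array with both knockdowns, ATP5MC2P1 and NDUFV1-DT were 1.5-fold higher, 2 of 101 against 4.25%, and LYRM7 and COX4I2 lower, 2 of 101 against 3.89%. At the looser limit, LYRM7, COX4I2, SCO1 and COX3 were lower, 4 of 101 against 4.98%, and ATP5MC2P1 was higher, 1 of 101 against 4.79%. The median of the mean ratio was 0.02 over the 101 genes (-0.0193 in the first pair and 0.03 in the second) and 0.01 over all 12066 genes kept, and the median size of the ratio was 0.09 against 0.15. In both pairs, 37 genes were above 0 and 33 below, and the remaining 31 changed sign between pairs.

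**Figure D1:**
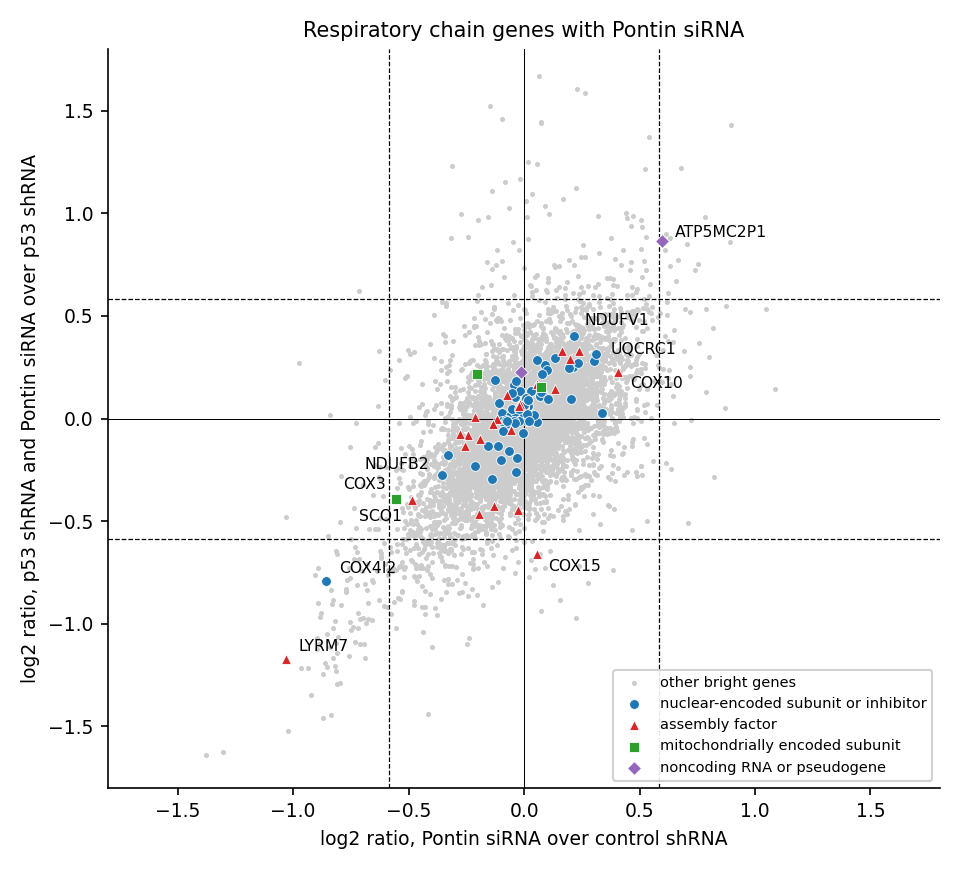
Log2 ratios of Pontin siRNA over control shRNA (x axis) and of both knockdowns over p53 shRNA (y axis) for the respiratory chain genes kept (coloured by kind) and the other bright genes (grey), with dashed lines at 1.5-fold. LYRM7 lies at -1.03 and -1.17 and COX4I2 at -0.86 and -0.79, apart from the cluster of subunit genes around 0. Grey points beyond the axis limits and NDUFV1-DT, at 1.95 and -0.01, are not shown.

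Complex III had the call with the largest size. LYRM7, a LYR-motif protein that holds the Rieske iron-sulfur subunit before its insertion, had a signal of 192.8 with Pontin siRNA against 393.8 with control shRNA, and 166.8 with both knockdowns against 376.0 with p53 shRNA. Both arrays with Pontin siRNA lay below both arrays without it, with log2 ratios of -1.03 and -1.17. All 4 probe sets of the gene that passed the filter were lower in both pairs, between -0.62 and -1.19, although 3 of them are of a type that can cross-hybridise. BCS1L, the AAA protein that moves the Rieske subunit across the inner membrane, was at -0.14 and -0.03, and TTC19, which acts after that insertion, at -0.03 and -0.45. With p53 shRNA, LYRM7 was at -0.07 and -0.21 by its brightest probe set. All 4 probe sets were below 0 in both p53 pairs, between -0.06 and -0.62.

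Among the subunit genes of complex III, the core protein gene UQCRC1 had a signal of 1323.8 with Pontin siRNA against 1065.7 with control shRNA, and 1243.0 with both knockdowns against 1000.6 with p53 shRNA. Its arrays with Pontin siRNA lay above those without, at 0.31 in each pair, under the looser limit. CYC1, which encodes cytochrome c1, was at 0.19 and 0.25. The other core protein gene, UQCRC2, had -0.21 and -0.23 by its brightest probe set and -0.08 and -0.29 by its next brightest, while its other probe set, with signals of 107 to 153.9, gave 0.52 and 0.26. The probe sets of UQCRC2 thus disagreed in sign. Over all 7 subunit genes of complex III the median was 0.02.

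**Figure D2:**
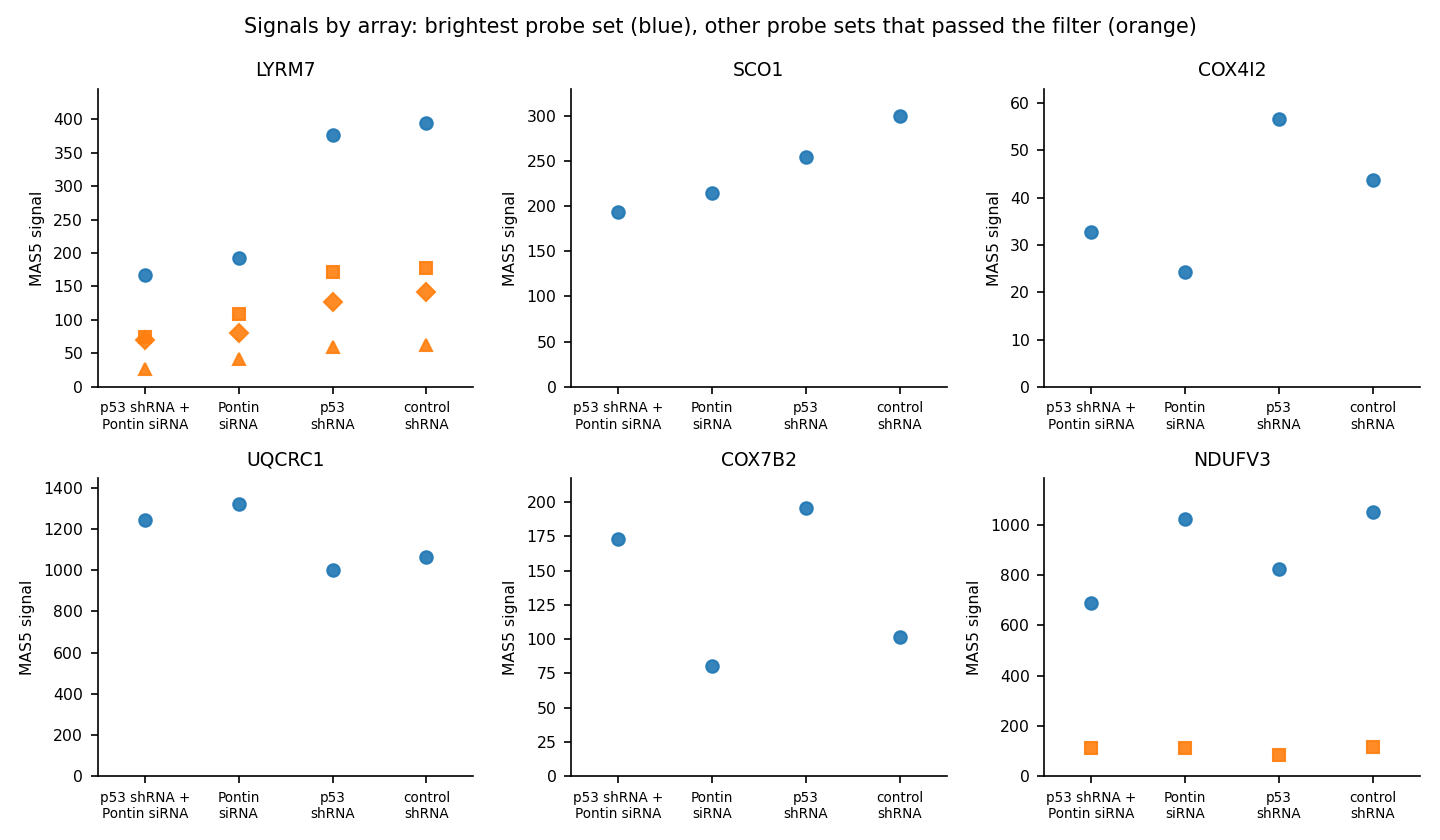
MAS5 signal per array (linear y axis from 0) of LYRM7, SCO1, COX4I2, UQCRC1, COX7B2 and NDUFV3 in the 4 groups, 1 array each, with the brightest probe set in blue and other probe sets past the filter in orange. The arrays with Pontin siRNA lie below the others for LYRM7, SCO1 and COX4I2, and the arrays with p53 shRNA lie above the others for COX7B2.

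Promoter sequences are shown for 2 genes lower with Pontin siRNA, LYRM7 and SCO1, 1 higher, UQCRC1, and for COX7B2, which was called with p53 shRNA. They are from RefSeq (GRCh38.p14) and run from 250 bases before to 50 after the annotated start, on the strand of the gene: LYRM7 at chr5:131170694-131170993 (plus strand), SCO1 at chr17:10697484-10697783 (minus), UQCRC1 at chr3:48609597-48609896 (minus) and COX7B2 at chr4:46909196-46909495 (minus). Capitals mark a match to CCGGAAG, a core known for ETS factors such as GABP, or to ATGGCGG, known for YY1, on either strand. On the minus strand CCGGAAG reads CTTCCGG.
LYRM7: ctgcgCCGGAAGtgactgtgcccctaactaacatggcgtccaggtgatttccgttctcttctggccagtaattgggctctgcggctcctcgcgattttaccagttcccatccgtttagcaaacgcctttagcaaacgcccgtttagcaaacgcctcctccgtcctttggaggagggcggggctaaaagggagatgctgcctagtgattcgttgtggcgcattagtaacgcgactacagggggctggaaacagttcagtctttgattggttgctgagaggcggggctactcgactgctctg
SCO1: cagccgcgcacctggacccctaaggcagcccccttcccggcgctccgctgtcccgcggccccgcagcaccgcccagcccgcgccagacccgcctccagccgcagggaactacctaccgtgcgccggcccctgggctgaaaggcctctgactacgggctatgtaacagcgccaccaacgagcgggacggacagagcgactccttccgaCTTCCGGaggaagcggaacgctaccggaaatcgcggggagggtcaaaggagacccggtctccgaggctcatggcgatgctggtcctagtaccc
UQCRC1: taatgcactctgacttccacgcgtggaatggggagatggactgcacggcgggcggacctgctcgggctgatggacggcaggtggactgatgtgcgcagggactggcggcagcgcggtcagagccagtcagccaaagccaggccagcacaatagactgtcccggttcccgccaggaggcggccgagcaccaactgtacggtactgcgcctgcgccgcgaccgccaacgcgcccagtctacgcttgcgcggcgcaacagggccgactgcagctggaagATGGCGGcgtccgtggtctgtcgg
COX7B2: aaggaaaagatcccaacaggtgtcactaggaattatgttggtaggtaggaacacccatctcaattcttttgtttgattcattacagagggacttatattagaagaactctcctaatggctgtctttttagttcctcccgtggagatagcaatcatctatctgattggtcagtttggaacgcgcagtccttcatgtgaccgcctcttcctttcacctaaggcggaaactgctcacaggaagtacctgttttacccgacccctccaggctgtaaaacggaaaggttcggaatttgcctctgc

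CCGGAAG stood 245 bases before the start in LYRM7 and, on the opposite strand, 43 bases before it in SCO1, and ATGGCGG began 27 bases after it in UQCRC1. COX7B2 had none of the motifs searched. Of 86 nuclear-encoded coding genes of the chain with a promoter entry, 32.6% held CCGGAAG, 20.9% held GCGCATG, the motif known for NRF1, and 27.9% held ATGGCGG, each on either strand. Over the 9350 coding genes kept on the array the shares were 22.7%, 8.58% and 12.9%, and over all 27305 RefSeq promoters they were 12.2%, 5.30% and 6.66%. With Pontin siRNA the median was 0.02 for CCGGAAG, -0.03 for GCGCATG, 0.02 for ATGGCGG and 0.01 for none of the 3 motifs, and with p53 shRNA it was 0.01, 0.02, -0.03 and 0.05 in the same order. A match is a run of letters in this window and not a measured binding site.

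The genes next to LYRM7 on chromosome 5 had ratios near 0. LYRM7 spans chr5:131170944-131205428 (GRCh38.p14), with HINT1 5688 bases to its left at -0.10 and -0.07, and CDC42SE2 4624 bases to its right at 0.01 and -0.02. SCO1 lies 61 bases from ADPRM, which was at -0.58 and -0.10 with Pontin siRNA. COX4I2, at chr20:31637912-31645006, lies 31402 bases from ID1, at -0.75 and -0.59, and 19446 bases from BCL2L1, at -0.34 and 0.18.

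In complex IV, COX4I2, an isoform of COX4 known from lung, had a signal of 24.2 with Pontin siRNA against 43.8 with control shRNA, and 32.7 with both knockdowns against 56.7 with p53 shRNA. The arrays did not overlap between Pontin siRNA and no Pontin siRNA, at -0.86 and -0.79, but these signals are near the filter, and with 16 added to each signal the mean ratio was -0.58 and the call was lost. COX4I1, the widely expressed isoform, was at -0.11 and 0.08, and among other common isoforms COX6A1 was at -0.02 and -0.01 and COX7A2 at -0.09 and -0.01. SCO1, a copper chaperone for the COX2 subunit, had a signal of 214.2 with Pontin siRNA against 299.9 with control shRNA, and 193.1 with both knockdowns against 254.2 with p53 shRNA. Its log2 ratios were -0.49 and -0.40, past the looser limit and under 1.5-fold. Its paralogue SCO2 was at -0.07 and 0.11.

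Further complex IV assembly genes lay on both sides of 0. COX10, which makes haem O, was at 0.40 and 0.23, and COX7A2L, which joins complexes III and IV in supercomplexes, at -0.20 and -0.47. COX15, which makes haem A, had a signal of 202.3 with Pontin siRNA against 194.4 with control shRNA, and 152.9 with both knockdowns against 241.9 with p53 shRNA, so its pairs differed in sign (0.06 and -0.66). The 3 other probe sets of COX15 gave -0.05 to -0.23 in both pairs. SURF1, an early assembly factor, was at -0.02 and 0.06.

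The mitochondrially encoded subunits differed among themselves. COX3 had a signal of 232.3 with Pontin siRNA against 341.0 with control shRNA, and 356.6 with both knockdowns against 468.4 with p53 shRNA, for ratios of -0.55 and -0.39. COX1 was at -0.20 and 0.22 and COX2 at 0.08 and 0.16. Of the 3, COX3 alone was below 0 in both pairs. Its probe set is of the type that can cross-hybridise, and its signals of 232.3 to 468.4 were well below the 2347.6 to 2825.2 of COX1.

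Complex I showed no call with Pontin siRNA, and its 33 nuclear-encoded subunit genes had a median of 0.02, with 16 above 0 in both pairs and 9 below. NDUFB2, an accessory subunit gene, had a signal of 3073.5 with Pontin siRNA against 3931.1 with control shRNA, and 3032.2 with both knockdowns against 3675.2 with p53 shRNA (-0.36 and -0.28). A second probe set of NDUFB2 gave -0.36 and -0.62, and the other, with signals of 35.2 to 39.6, gave 0.17 and 0.10. NDUFV1, which carries the FMN of the NADH-oxidising site, was at 0.22 and 0.40. The accessory subunit genes NDUFA7 (0.30 and 0.28), NDUFB7 (0.23 and 0.27) and NDUFA3 (0.21 and 0.25) and the assembly factor gene NDUFAF8 (0.24 and 0.33) were also above 0 in both pairs. A second NDUFB7 probe set, with signals of 19.7 to 46.6, gave 1.24 and -0.50. NDUFS1, which encodes the largest iron-sulfur core subunit, was at -0.14 and -0.29, and the assembly factor gene NDUFAF1 at -0.24 and -0.08. The second brightest probe set of NDUFS1 gave -0.50 and -0.55. Its dimmer ones that passed the filter were also below 0 in both pairs, except one at 0.31 and -0.48 with signals of 39.7 to 55.5.

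By their brightest probe sets, the subunit genes of complexes II and V spanned the narrowest ranges with Pontin siRNA, though complex II had 3 genes. Other probe sets of these genes lay further out, on both sides of 0. A second probe set of ATP5MG gave -0.48 and -0.56, and a dimmer probe set of ATP5F1C gave 0.45 and 0.36. For SDHC, a dimmer probe set gave -0.20 and -0.47 and another gave 0.08 and 0.38. The SDHC probe set furthest from 0, with signals of 29.9 to 52.3, gave -0.81 and -0.56. The 3 subunit genes of complex II had mean ratios between -0.15 and 0.03, with SDHA, the flavoprotein subunit, at 0.04 and 0.02. The 16 subunit genes of complex V lay between -0.11 and 0.17, with the catalytic subunit gene ATP5F1B at 0.02 and -0.01 and ATP5F1A at 0.07 and 0.13. ATP5IF1, the inhibitor of ATP hydrolysis, was at 0.08 and 0.22 by its brightest probe set, while its other probe sets that passed the filter were below 0 in both pairs. The pseudogene ATP5MC2P1, at chr1:209267650-209268283, had 35.3 with Pontin siRNA against 23.3 with control shRNA and 52.7 with both knockdowns against 28.9 with p53 shRNA, and its call was lost under quantile and cyclic loess normalization and with 16 added to each signal. Of the genes for the c subunit of the rotor, ATP5MC2 was at 0.10 and 0.09, ATP5MC1 at -0.02 and 0.04 and ATP5MC3 at -0.0019 and 0.07.

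Subunits and assembly factors were also set side by side. With Pontin siRNA the 23 assembly factor genes had a median of -0.08, with 6 above 0 in both pairs and 11 below, and the 71 nuclear-encoded subunit genes a median of 0.02, with 28 above and 21 below. The first median was -0.06 and the second 0.0012 after quantile normalization. Of all genes kept, 33.9% were above 0 in both Pontin pairs and 32.0% below. A further list of 41 assembly factor genes, outside the symbol rule, had a Pontin median of -0.01, with 16 above 0 in both pairs and 15 below. The lower median of the 23 was thus not shared by this list. The ratio of 3' to 5' ACTB control probe sets, a sign of RNA quality, was 2.66 with Pontin siRNA against 3.21 with control shRNA, and 2.96 with both knockdowns against 3.48 with p53 shRNA, and its part in these medians was not tested. The median size of the ratio was 0.18 for assembly factors and 0.05 for subunits. The size of the ratio varied with signal: respiratory chain genes with signals of 110.3 to 1000 had a median size of 0.20, those of 1000 to 4000 of 0.10, and those of 4000 and over of 0.04. Other genes showed 0.14, 0.10 and 0.07 in the same ranges.

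**Figure D3:**
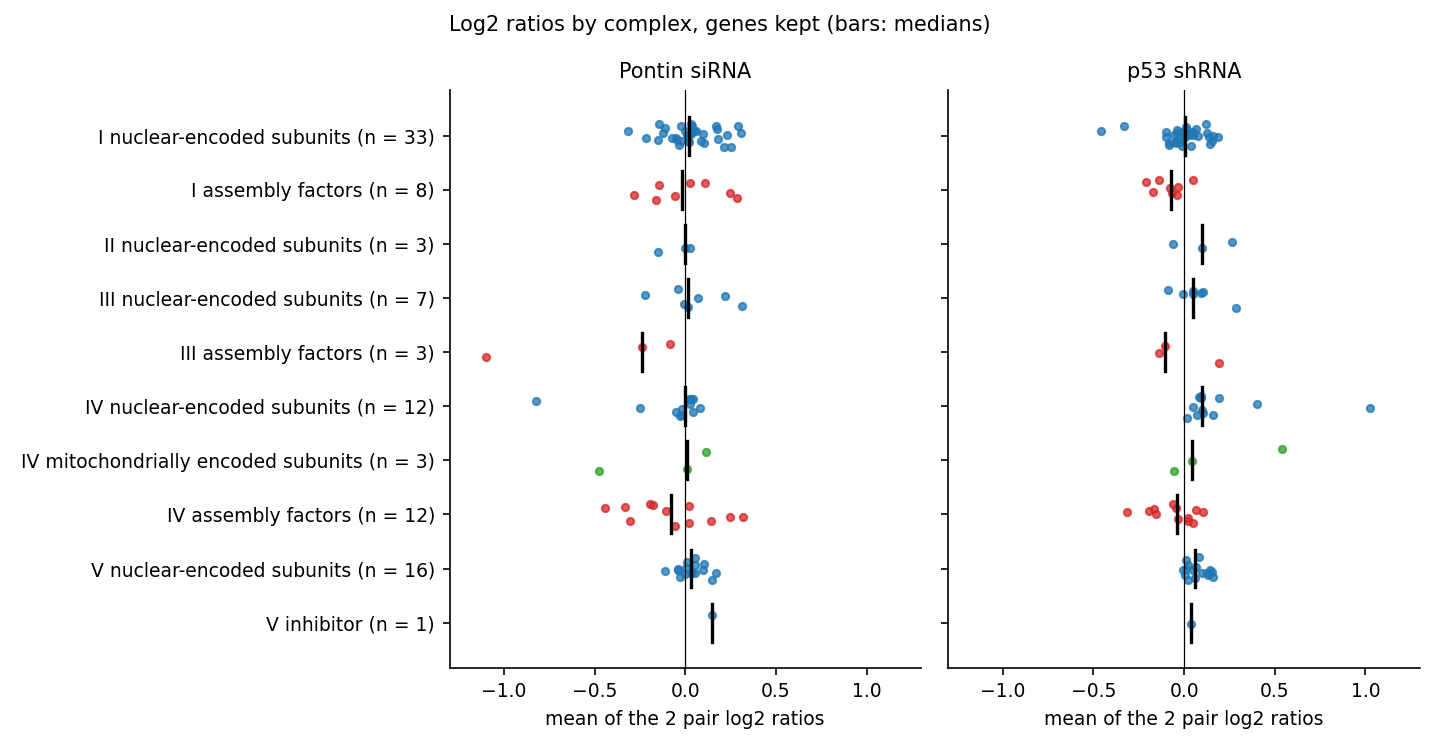
Mean log2 ratio of the 2 pairs (x axis) for Pontin siRNA (left) and p53 shRNA (right), with 1 point per gene kept, grouped by complex and role, and a bar at each median. With p53 shRNA the complex IV nuclear-encoded subunits lie at or above 0.01, with COX7B2 at 1.03. The 3 noncoding RNA or pseudogene members kept are left out.

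With p53 shRNA, COX7B2, a subunit isoform of complex IV known from testis, was called higher, 1 of 101 genes, where 1.38% of all genes kept were called higher. Its signal was 195.6 with p53 shRNA against 101.3 with control shRNA, and 173.2 with both knockdowns against 80.7 with Pontin siRNA. Both arrays with p53 shRNA lay above both without, at 0.95 and 1.10. No respiratory chain gene was called lower, 0 of 101 against 0.862% of all genes kept. These counts are near the background. COX7B2 has 1 probe set, spans chr4:46734827-46909245, and its neighbours GABRA2 and GABRA4 did not pass the filter.

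Among bright genes, COX7B2 was the 1 called higher, against 0.22%, and 0 were called lower, against 0.413%. In the first pair alone, COX7B2 and NDUFV1-DT were 1.5-fold higher, 2 of 101 against 5.03%, and 0 were lower, against 3.77%. At the looser limit, COX7B2, COX3, COX4I2 and NDUFV1-DT were higher with p53 shRNA, 4 of 101 against 4.89%, and NDUFV3 was lower, 1 of 101 against 3.46%. COX3, at 468.4 with p53 shRNA against 341.0 with control shRNA and 356.6 with both knockdowns against 232.3 with Pontin siRNA, had ratios of 0.46 and 0.62. As said above, its probe set can cross-hybridise. COX4I2 was at 0.37 and 0.43. NDUFV3, an accessory subunit gene of complex I, had a signal of 824.6 with p53 shRNA against 1048.6 with control shRNA, and 687.3 with both knockdowns against 1023.0 with Pontin siRNA. Its brightest probe set gave -0.35 and -0.57, while the other gave -0.48 and 0.02. COX18, which inserts part of COX2 into the inner membrane, was at -0.37 and -0.25, and NDUFB3, an accessory subunit gene of complex I, at -0.18 and -0.49.

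**Figure D4:**
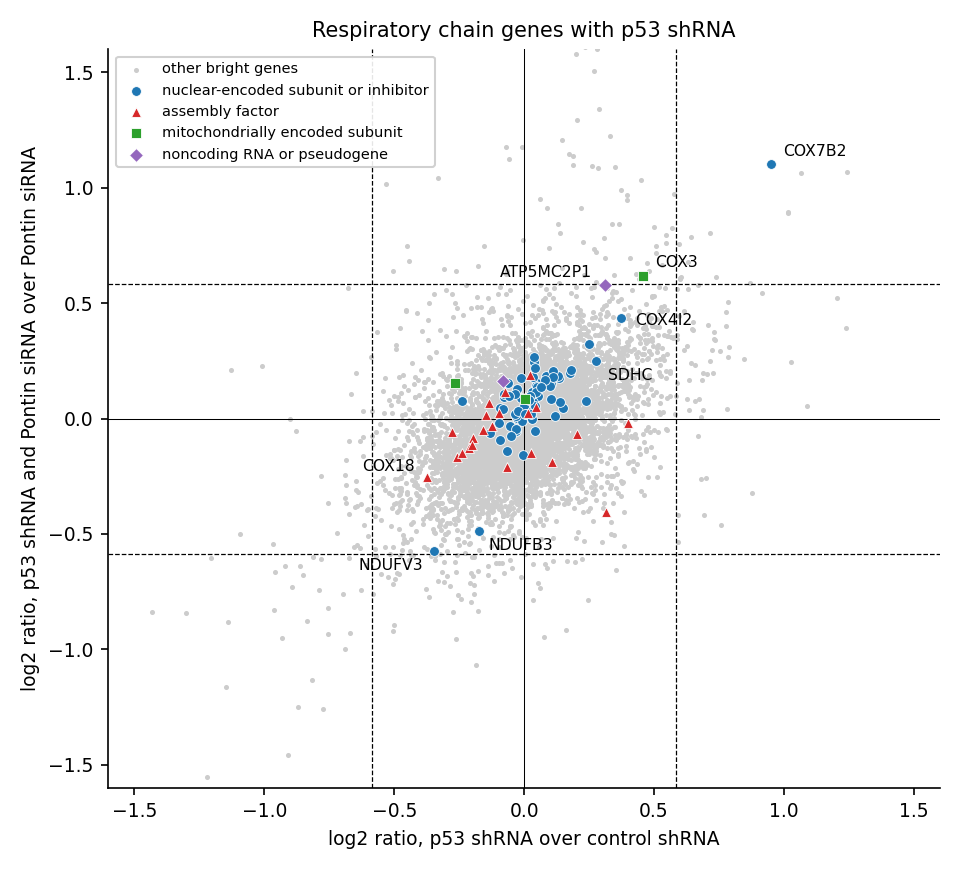
Log2 ratios of p53 shRNA over control shRNA (x axis) and of both knockdowns over Pontin siRNA (y axis) for the respiratory chain genes kept (coloured by kind) and the other bright genes (grey), with dashed lines at 1.5-fold. COX7B2 lies at 0.95 and 1.10 and NDUFV3 at -0.35 and -0.57. Grey points beyond the axis limits and NDUFV1-DT, at 2.47 and 0.51, are not shown.

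Most subunit genes of complexes IV and V stood slightly above 0 with p53 shRNA. Of 12 nuclear-encoded subunit genes of complex IV, 11 were above 0 in both pairs, with a median of 0.10 (0.03 after quantile normalization), and of 16 in complex V, 12 were above 0 in both, with a median of 0.06 (0.01 after quantile normalization). The 3' to 5' ratio of the ACTB control probe sets was 3.48 with p53 shRNA against 3.21 with control shRNA, and 2.96 with both knockdowns against 2.66 with Pontin siRNA, so it was higher with p53 shRNA in both pairs, while that of GAPDH was 0.989 against 1.04 and 1.004 against 0.972. Its part in the medians was not tested. COX7C was at 0.18 and 0.21 and COX5B at 0.13 and 0.19, while ATP5F1B was at 0.03 and -0.0040. In complex I, 12 of 33 subunit genes were above 0 in both pairs and 11 below, with a median of 0.01 that was -0.02 after quantile and -0.01 after cyclic loess normalization. In complex III, UQCR11 was at 0.25 and 0.32 by its brightest probe set and at -0.02 and -0.20 by its other, with signals of 188.5 to 221, and UQCRC1 at -0.09 and -0.09. SDHC, a membrane anchor of complex II, had ratios of 0.28 and 0.25 by its brightest probe set, but among its other 6 probe sets the highest ratio was 0.22, and 5 of the 6 were below 0 in at least 1 pair.

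At the highest signals, other genes also stood above 0. Among genes with a mean signal of 4000 or more, the median p53 ratio was 0.07 for 33 respiratory chain genes and 0.08 for 308 other genes. In both pairs, 75.8% of the 33 and 60.1% of the 308 were above 0. At signals of 1000 to 4000, the median was 0.02 for 39 respiratory chain genes and -0.015 for 1664 other genes. There, 41.0% and 30.1% were above 0 in both pairs. At 110.3 to 1000 the medians were -0.04 and -0.02, with 20% and 28.2% above 0 in both pairs. Over all 101 genes the median was 0.04, with 49 above 0 in both pairs and 23 below, against -0.0024 over all genes kept, and it was -0.00235 after quantile normalization, where the median over all genes was -0.0129. Assembly factor genes had a median of -0.06, with 4 of 23 above 0 in both pairs and 10 below, among them SURF1 at -0.20 and -0.11, NDUFAF2 at -0.21 and -0.13, NDUFAF8 at -0.26 and -0.17 and SCO1 at -0.24 and -0.15. SCO2, described elsewhere as a target of wild-type p53, was at -0.07 and 0.11.

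**Figure D5:**
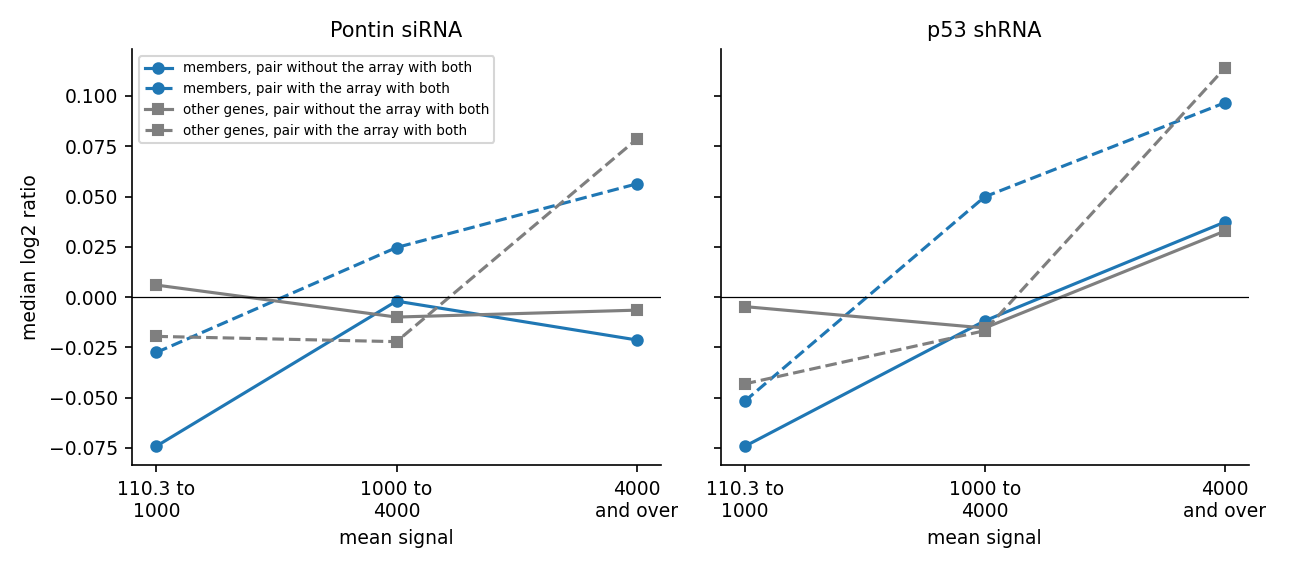
Median log2 ratio (y axis) of respiratory chain genes (blue) and other genes (grey) by range of mean signal (x axis), for Pontin siRNA (left) and p53 shRNA (right), with the pair that includes the array with both knockdowns dashed. At 4000 and over, the p53 medians are 0.04 and 0.10 for respiratory chain genes and 0.03 and 0.11 for other genes.

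For each knockdown, 0 of the 101 genes passed the looser limit in both pairs with opposite signs, against 3.49% of all genes kept for Pontin siRNA and 3.55% for p53 shRNA. Of the 101 genes 97 were bright, against 7744 of the 12066 genes kept, and this share was not taken over bright genes alone. The departure from additivity, in log2 the double knockdown plus the control, less the sum of the single knockdowns, exceeded 1.5-fold in 2 of 101 genes, against 13.1% of all genes kept, and in 1 of 97 bright genes (1.03%), against 2.60% of all bright genes. These were NDUFV1-DT at -1.96, a noncoding RNA with a signal of 7.4 with control shRNA, and COX15 at -0.72. The COX15 value came from its brightest probe set alone. Its other probe sets that passed the filter had Pontin ratios of -0.05 to -0.23 in both pairs, with no such gap between pairs. TTC19 followed at -0.42, and COX1 (0.42), NDUFAB1, the mitochondrial acyl carrier protein gene (0.31), and ATP5MC2P1 (0.27) were highest. Across the bright respiratory chain genes, the 2 Pontin pairs correlated at a Pearson r of 0.75 (n = 97) and the 2 p53 pairs at 0.67, against 0.61 and 0.50 over all 7744 bright genes. Over all 101 genes the Pearson r was 0.58 and 0.57, and without LYRM7, COX4I2 and COX7B2 0.43 and 0.49 (n = 98), so the Pearson values lean on a few genes. The genes left out had been called because both pairs of a knockdown agreed, so a fall in r was built in. By rank, the Spearman correlation was 0.70 and 0.56 over the 101 genes and 0.67 and 0.53 over the 98. It was 0.71 and 0.53 over the bright respiratory chain genes, against 0.57 and 0.44 over all bright genes. These are descriptions over genes, which share arrays.

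Other mitochondrial lists gave few calls with either knockdown. Among 12 genes of LYR-motif proteins kept, LYRM7, already described, and LYRM1 were called lower with Pontin siRNA, where 1.24% of all genes kept were. The list was chosen with earlier results of these data known and holds LYRM7 itself, so its count is not separate evidence. SDHAF3, a complex II assembly factor gene, was at -0.35 and -0.62, while LYRM2 was at 0.32 and 0.44. In both pairs 3 of the 12 were above 0 and 4 below, and the list median was 0.0006. LYRM1 had a signal of 571.4 with Pontin siRNA against 1051.6 with control shRNA, and 380.9 with both knockdowns against 735.3 with p53 shRNA (-0.88 and -0.95), and it was also below 0 with p53 shRNA (-0.52 and -0.59). Of 75 mitochondrial ribosome genes kept, MRPS10 was called lower with Pontin siRNA (-0.59 and -0.74), 1 of 75 and near the 1.24% of all genes kept. With p53 shRNA none of these lists had a called member. The p53 medians of 7 of the 8 lists lay below 0, also after quantile normalization, cyclic loess and median centring, at -0.04 for mitochondrial ribosome genes (42 of 75 below 0 in both pairs), -0.14 for iron-sulfur cluster assembly (11 of 14), -0.06 for the TCA cycle (10 of 15) -0.05 for further assembly factors (21 of 41), -0.10 for electron carriers and CoQ synthesis (9 of 17), -0.05 for protein import and cristae (12 of 27) and -0.04 for LYR-motif proteins (4 of 12), where the median over all genes kept was -0.0024. Of all genes kept, 32.2% were below 0 in both p53 pairs. Of all bright genes, 36.6% were, with a median of -0.01. The share of LYR-motif proteins below 0, 33.3%, was near these, and that of protein import and cristae was 44.4%. The list of mitochondrial biogenesis regulators was at 0.0021. With Pontin siRNA the list medians ran between -0.05 for the TCA cycle and 0.07 for protein import and cristae.

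Probe sets of the same gene offered a repeat of the measure on the same arrays. Of 74 other probe sets of 45 respiratory chain genes that passed the filter, 40 had the sign of the brightest one for Pontin siRNA and 38 for p53 shRNA. Where the brightest probe set was at least 0.2 from 0, 15 of 19 shared its sign for Pontin siRNA and 3 of 8 for p53 shRNA.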

How the data were processed

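RNA from 4 SK-BR-3 cultures, 1 array per group, was measured on Affymetrix arrays of 54675 probe sets. The deposited values are intensity signals on a linear scale made by the authors with MAS5, per the submitters' processing notes, which give no version. The mean of each array without its extremes was 150.0, so the arrays were already scaled to a common level. Signals were taken to log2 with no pseudocount, and 14 signals of 0 were set to 0.1. Of the probe sets, 41097 carried 1 symbol, 1801 several and 11777 none listed. Names came from the platform annotation, updated by Entrez identifier (41043 matched). Each gene was represented by its brightest probe set.

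Named genes were RUVBL1 and RUVBL2, called genes, the 8 highest and 8 lowest per knockdown with the same sign in both pairs, the 3 highest and 3 lowest departures, fixed examples of roles and isoforms, and called genes of other lists. The members and lists were chosen with earlier results of these data known. The target of the p53 shRNA is left out of these results. The number of arrays, 1 per group, limits the precision. The calls were tested on simulated data with known changes. In a simulated Pontin comparison, 117 of 11866 unchanged genes were called. With a log2 change of 1, 72 of 72 bright genes and 30 of 42 genes that were not bright were called. With a log2 change of 2, 57 of 57 and 29 of 29 were. Alternatives changed normalization, pseudocount, probe set choice, filter and fold limit, and a limma additive fit took the pairs as replicates. Python 3.11.15, R 4.3.3 and limma 3.58.1 were used.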

Additional observations from a re-analysis of the deposited data

How the results depend on the processing

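Of the calls, LYRM7 with Pontin siRNA kept its direction and stayed past the limit under each alternative but the additive fit. The number of genes called higher with Pontin siRNA was 1 as reported, 0 with quantile normalization, cyclic loess, a pseudocount of 16, bright genes alone and a 2-fold limit, 3 with the mean over probe sets, and 2 with no filter or without the array with both knockdowns. The number called lower was 2 as reported, 1 with the pseudocount, bright genes alone and the 2-fold limit, and 4 at the looser limit. With p53 shRNA the number called higher was 1 as reported, 2 with the mean over probe sets, no filter or without the array with both knockdowns, 4 at the looser limit and 0 at 2-fold, and the number called lower was 0 as reported and 1 with the mean over probe sets, no filter or the looser limit. The median p53 ratio was -0.0050 with the mean over probe sets, and the median Pontin ratio -0.0193 without the array with both knockdowns, an alternative chosen after seeing the data. The limma additive fit, with 1 residual degree of freedom, called 0 of 12066 genes at an adjusted p of 0.05 for either knockdown. LYRM7 had an adjusted p of 0.337 for Pontin siRNA and COX7B2 of 0.398 for p53 shRNA. The mean ratio of ATP5MC2P1 for Pontin siRNA was 0.63 after quantile and after cyclic loess normalization and 0.50 with the pseudocount. With the mean over probe sets, SDHD was at 0.83 for p53 shRNA through a probe set below the filter. Of the values by complex, 173 were within the spread used as tolerance and 23 moved. The cause was not tested where no value shows it. Each knockdown was read in matched pairs and by the additive fit on them. No paired analysis by replicate number (a replicate block) was possible because each group has 1 array and the labels carry no replicate number. Dim signals limit COX4I2, at 24.2 to 56.7, and ATP5MC2P1, at 23.3 to 52.7. For nuclear-encoded subunits the median p53 ratio was -0.0059 with the mean over probe sets.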
